A study of Homo sapiens with 9 samples.

Results

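Axon guidance ligands and receptors were followed in human spinal cord organoids (SCOs) exposed to valproic acid, alone or with Rapamycin. The 73 genes were taken from the 31589 genes of the series by name, as protein-coding genes of the semaphorin classes 3 to 7 (SEMA), plexins (PLXN), neuropilins (NRP), ephrins (EFN), Eph receptors (EPH), SLIT and ROBO families, netrins (NTN), UNC5 receptors, DCC, NEO1, DSCAM, RGMA and RGMB.

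Bulk RNA sequencing of poly-A RNA measured 9 libraries of whole SCOs, 3 for each of 3 conditions. SCOs are neural tube-like aggregates grown from induced pluripotent stem cells, here of the WTC line, a reference line. Vehicle SCOs, titled FGF in the labels, received this growth factor, which the study's methods give to the treated SCOs too. VPA SCOs also received valproic acid (VPA), an antiepileptic drug that inhibits histone deacetylases, and VPA + Rapamycin SCOs received VPA together with Rapamycin, an inhibitor of the kinase mTOR. The labels give an exposure of 96 h and the genotype WT, and no dose. According to the study, the WTC cells carry a fluorescent reporter and a recombinase inserted at SOX10. They also carry a randomly integrated GFP cassette for lineage tracing, which the recombinase switches on. The study also states that each library pools several organoids of a single clone, and that some clones have small insertions or deletions at the other SOX10 allele. The labels do not tie a library to a clone, so p-values measure the spread between these libraries.

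Guidance genes encode secreted or membrane-bound cues and the receptors with which a growing axon reads them. In the developing spinal cord, netrin 1 attracts commissural axons to the ventral midline through DCC, SLIT proteins repel them through ROBO1 and ROBO2 once they have crossed, and ROBO3 permits the approach. Semaphorins act through plexins, the secreted class 3 members mostly with neuropilins as co-receptors, and ephrins act through Eph receptor tyrosine kinases. Many of these genes are also active in progenitors, neural crest, mesenchyme and vessels.

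Depth was alike in the 3 conditions, with 15290325 to 17417368 reads counted on genes per library, so that 3 counts, taken as the floor, corresponded to 0.172 to 0.196 CPM, the count scaled to library size. No library repeated another of its condition, since the chi-square of their counts was 4.75 to 39.1 per gene, largest between vehicle replicates 1 and 3. The neural markers SOX2, at 4021 to 5077 reads, and PAX6, at 4469 to 5717, were abundant in every library, whereas POU5F1 and NANOG, markers of pluripotent cells, had at most 14. LIN28A, the third pluripotency gene listed, had 1336 to 4131 reads. Vehicle replicate 3 stood apart. It held 86 reads of LHX9, 33 of BARHL1 and 126 of ATOH1, which mark dorsal interneurons and their progenitors, where both other vehicle libraries had 0, and 307 of TFAP2B against 2 and 2. Of the other 3 of the 6 dorsal markers listed, POU4F1 had 33, 30 and 121 reads in vehicle. LHX2, with 1, 4 and 4, and BARHL2, with 0, 0 and 0, did not set that library apart. Vehicle replicate 3 also held 137 reads of ISL1, 176 of SHH and 52 of FOXA2, and VPA + Rapamycin replicate 3 held 58, 166 and 85 of these markers of motor neurons and floor plate. MNX1 and LHX3, also listed for motor neurons, had their fewest vehicle reads in that vehicle library, with 28, 32 and 24 and with 217, 204 and 156. Calls of guidance genes that rest on either library are given with and without it. UNC5C, EPHA5 and genes outside the guidance set, markers included, are given only with both libraries. SOX10, the marker of neural crest at which the reporter sits, had 347, 248 and 230 reads in vehicle, 5, 10 and 9 in VPA and 8, 37 and 63 with Rapamycin added, and its part in the changes of guidance genes was not tested. In whole organoids, fewer cells of a type and less RNA per cell cannot be told apart.

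**Figure D1:**
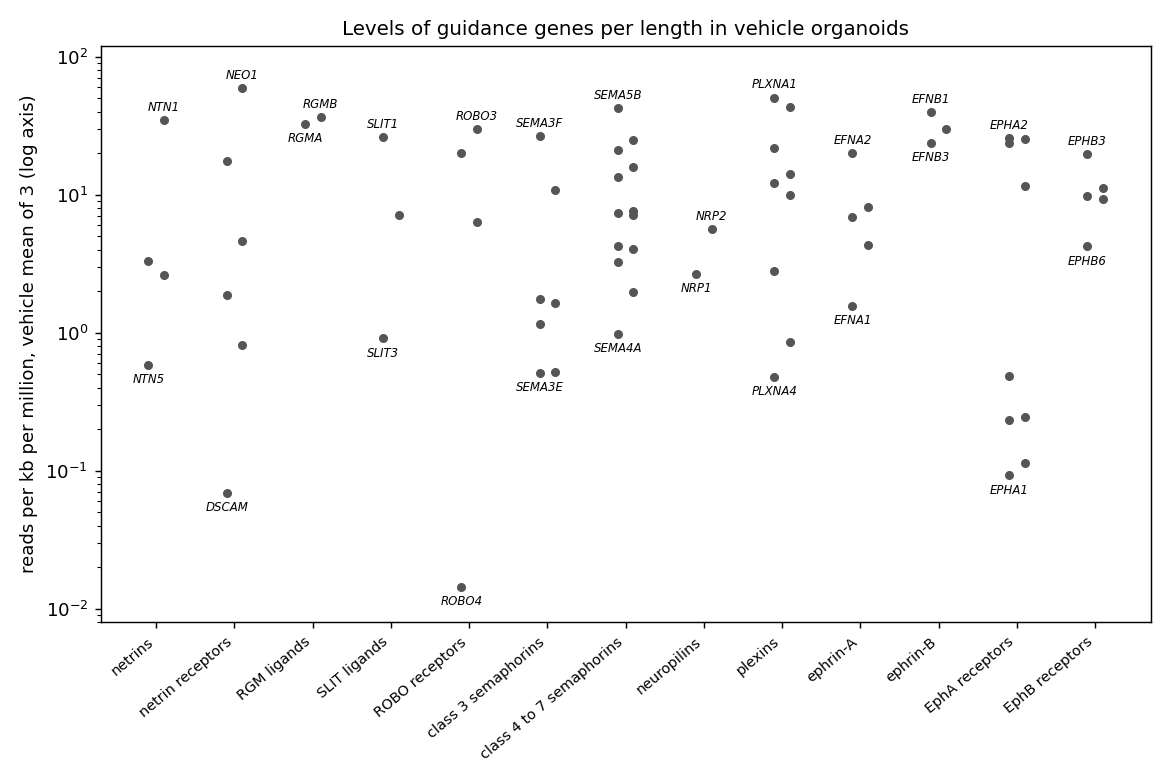
Level of each member in vehicle SCOs, in RPKM, the count scaled to gene length and library size (log axis, mean of 3 libraries), by family, with the highest and lowest member of each family named. UNC5D had 0 counts in vehicle and is not drawn, and the drawn members span from 0.0143 for ROBO4 to 59.3 for NEO1.

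Most families held both abundant and scarce members. Compared per length, in RPKM in vehicle, NEO1, a receptor for RGM proteins and netrins, was the highest at 59.3 ± 6.74, followed by the semaphorin receptors PLXNA1 at 50.7 ± 6.05 and PLXNB2 at 43.1 ± 4.24 (SD, n = 3 each). The transmembrane SEMA5B at 42.7 ± 10.6 and the ephrin EFNB1 at 39.8 ± 4.52 came next and lay within 1 SD of PLXNB2. On the same scale the midline genes reached 35.0 ± 5.90 for NTN1, 30.2 ± 5.36 for ROBO3, 26.1 ± 2.35 for SLIT1, 20.1 ± 2.12 for ROBO1 and 17.5 ± 7.82 for DCC. SLIT1 exceeded SLIT2, at 7.15 ± 0.182, and SLIT3, at 0.910 ± 0.300. SEMA3A, ranked 30 of the 73 members, was at 10.9 ± 0.812. DSCAM (4 to 15 reads per library), the endothelial receptor ROBO4 (0 to 7 reads) and UNC5D (0 in vehicle and VPA, and 3, 0 and 1 reads with Rapamycin) were too low to be tested, and EPHA1 was tested in 2 of the 3 comparisons.

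The first comparison asked how VPA alters these genes. VPA SCOs had less ROBO3, RGMB, SEMA5B, PLXNA3 and PLXNA4 mRNA and more SEMA3E, SEMA3C, SLIT3 and EPHA8 mRNA than vehicle SCOs. Of the 70 members tested, 8 were higher with VPA (11.4%, against 16.4% of all 17360 genes tested) and 16 were lower (22.9%, against 15.7%), at an adjusted p of at most 0.05 from edgeR's quasi-likelihood test. Among protein-coding genes alone, to which all members belong, 18.9% were called higher and 15.7% lower. The median log2 fold change was -0.087 over the members and -0.0030 over all genes. The share called higher was thus under that of all genes, and the share called lower above it. Without VPA replicate 1 the counts were 5 higher and 10 lower, beside 10.6% and 9.55% of all genes, and without VPA replicate 2 the lower count was 9, beside 8.90% of all genes.

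**Figure D2:**
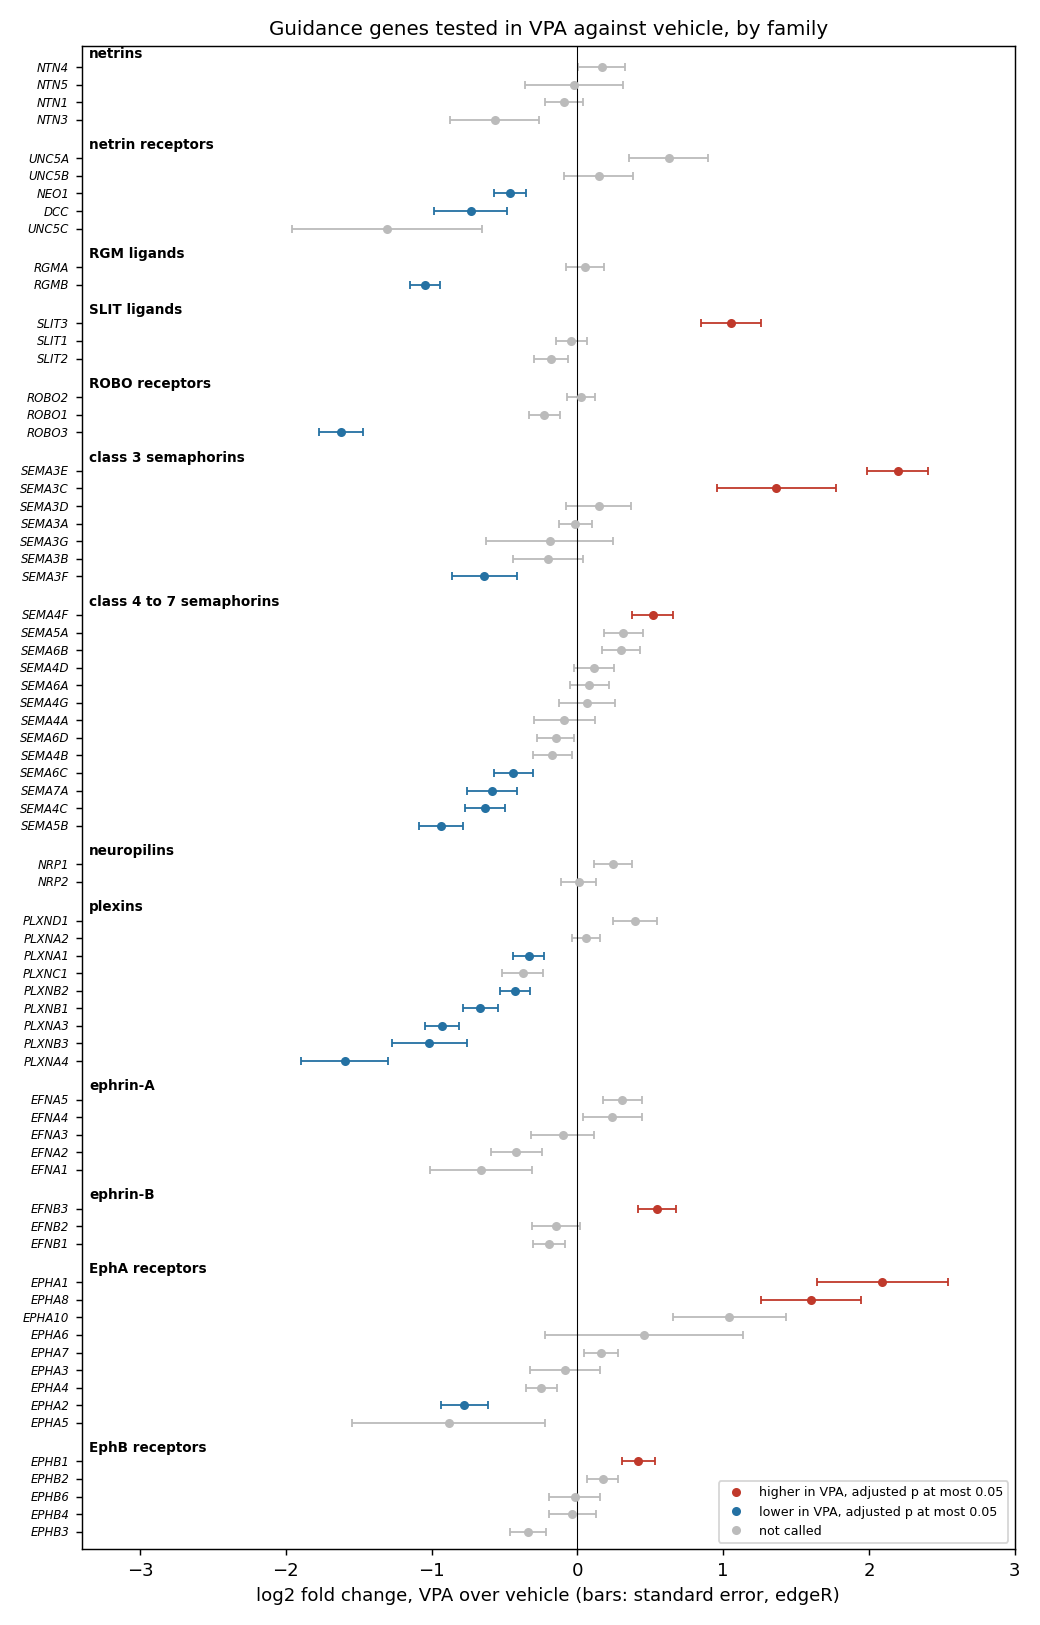
Log2 fold change of each of the 70 tested members in VPA over vehicle, by family (point, estimate; bar, standard error; 3 libraries a condition; edgeR). Red marks the 8 members called higher, blue the 16 called lower and grey those not called, and 6 of the 9 plexins are blue.

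Netrins, which are secreted cues, did not pass the test in VPA against vehicle (0 of 4 higher and 0 of 4 lower). Of 5 tested netrin receptors, 2 were lower and 0 higher, where 15.7% and 16.4% of all genes were called. NTN1 had 3845, 3935 and 2977 reads in vehicle, 3119, 3574 and 4003 in VPA and 4128, 4744 and 4602 with Rapamycin added. Vehicle overlapped VPA. VPA + Rapamycin lay above all VPA libraries once scaled to depth and still overlapped vehicle. The log2 fold change of NTN1 in VPA was -0.09, with an approximate 95% interval from -0.35 to 0.17.

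DCC, the attractive receptor of netrin 1, had 2260, 3312 and 5473 reads in vehicle, 2111, 2330 and 2632 in VPA and 3121, 3260 and 3019 with Rapamycin added. Vehicle replicate 3 was by far the highest library and vehicle replicate 1 lay among the VPA libraries, so the groups overlapped. DCC was called lower with VPA (log2 fold change -0.73 with a standard error, SE, of 0.25, adjusted p = 0.0445, edgeR), but the call was lost without vehicle replicate 3 (-0.34, adjusted p = 0.0796), vehicle replicate 2 or any of the VPA libraries (adjusted p up to 0.148), and with DESeq2 (0.147). NEO1 had 8545, 7884 and 6762 reads in vehicle, 5386, 5709 and 6728 in VPA and 8066, 6978 and 6521 with Rapamycin added. Scaled to depth, VPA lay below vehicle in all libraries of NEO1 (log2 fold change -0.46, adjusted p = 0.00906, edgeR), and without VPA replicate 1 the adjusted p was 0.0629.

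The repulsive netrin receptors UNC5A, UNC5B and UNC5C were not called. UNC5C had 113, 83 and 774 reads in vehicle, 126, 168 and 118 in VPA and 180, 142 and 126 with Rapamycin added. The library with 774 was vehicle replicate 3, in which the ephrin receptor EPHA5 (17, 33 and 182 reads in vehicle) and SEMA3C were also the highest of their vehicle libraries. EPHA5 shares its locus with a processed pseudogene that had more reads, 300 against 52.2 on average.

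RGMB, a membrane-anchored ligand of neogenin and a co-receptor for BMPs, had 3742, 3769 and 4265 reads in vehicle, 1966, 1857 and 2216 in VPA and 2289, 2128 and 1907 with Rapamycin added. Both treated groups lay well below vehicle and overlapped each other. RGMB was at 48.8% of its vehicle level with VPA, 1970 ± 97.5 against 4038 ± 355 normalised counts (SD, n = 3 each), with a log2 fold change of -1.05 (SE 0.10, adjusted p = 6.82e-05, edgeR). The antisense gene RGMB-AS1 overlaps it and had 297 reads on average against 2682, so some reads at this locus are uncertain. RGMA, its paralogue and a repulsive ligand of neogenin, was not called, with 5699 to 8662 reads in vehicle and 7014 to 8721 in VPA.

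ROBO3, the receptor that lets commissural axons reach the midline, had the smallest p among the members lowered by VPA. In GRCh38 it spans chromosome 11, plus strand, from 124865386 to 124881470. Its reads were 3194, 2909 and 4130 in vehicle, 1172, 959 and 1398 in VPA and 1690, 2201 and 1508 with Rapamycin added. The 3 groups did not overlap, with VPA lowest and VPA + Rapamycin between. In normalised counts this was 3501 ± 623, 1148 ± 168 and 1782 ± 293 (SD, n = 3 each). VPA SCOs thus held 32.8% of the vehicle level, a log2 fold change of -1.62 (SE 0.15, adjusted p = 4.07e-05, edgeR). The estimate ran from -1.72 to -1.46 when each library was left out in turn.

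Of 9 neuronal markers (TUBB3, STMN2, ELAVL3, ELAVL4, DCX, MAP2, SNAP25, GAP43 and INA), 5 were lower with VPA and 0 higher, beside 15.7% and 16.4% of all genes. Their summed level was 1445, 1924 and 2493 CPM in vehicle, 1305 to 1384 in VPA and 1409 to 1471 in VPA + Rapamycin. Vehicle replicate 3 was thus the highest, and vehicle replicate 1 lay within the range of VPA + Rapamycin. Of the 6 markers of commissural and dorsal interneurons, 2 had enough reads to be tested, with 1 higher and 0 lower with VPA. LHX2 had 1, 4 and 4 reads in vehicle, 27, 24 and 20 in VPA and 28, 22 and 17 with Rapamycin added. BARHL2 had 0, 0 and 0, then 9, 4 and 5, then 1, 3 and 1. POU4F1 had 33, 30 and 121, then 91, 84 and 85, then 78, 72 and 62, with vehicle libraries on both sides of VPA. Other markers of the list went the other way. LHX9 had 0, 0 and 86 reads in vehicle and BARHL1 0, 0 and 33, and both had 0 in every treated library. ATOH1 had 0, 0 and 126, then 0, 2 and 6, then 0, 7 and 0. The vehicle reads of LHX9, BARHL1 and ATOH1 all came from replicate 3. The part of both marker lists in the changes of ROBO3, DCC and the plexins was not tested.

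The other ROBO receptors and their ligands mostly did not pass the test. ROBO1 had 3304, 3313 and 3903 reads in vehicle, 3278, 2932 and 3288 in VPA and 2764, 2775 and 2698 with Rapamycin added, and ROBO2 had 1694, 1627 and 1770, then 1776, 1807 and 1887, then 1963, 1761 and 1770. For both, the vehicle and VPA libraries overlapped. The log2 fold changes were -0.23 for ROBO1 (approximate 95% interval -0.44 to -0.02, unadjusted p = 0.0534, adjusted p = 0.122, edgeR) and 0.02 for ROBO2 (-0.17 to 0.22). Of the SLIT ligands, SLIT1 had 3655, 3932 and 3835 reads in vehicle, 3693, 3707 and 4375 in VPA and 3691, 4439 and 4440 with Rapamycin added. SLIT2 had 1147, 1083 and 1117, then 1028, 1126 and 951, then 1101, 1045 and 1352. The libraries of both genes overlapped in every comparison.

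SLIT3, the least expressed SLIT, was the exception. It had 161, 177 and 287 reads in vehicle, 421, 457 and 495 in VPA and 328, 379 and 639 with Rapamycin added. Every treated library lay above every vehicle library, and VPA + Rapamycin replicate 3 was the highest of the 9. SLIT3 was 2.09-fold higher with VPA (log2 fold change 1.05, SE 0.21, adjusted p = 0.00322, edgeR), and without vehicle replicate 3 the estimate was 1.36.

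Of the 7 class 3 semaphorins, which are secreted, 2 were higher and 1 was lower with VPA, beside 16.4% and 15.7% of all genes. Their median log2 fold change was -0.01. SEMA3E, which can signal through PLXND1 without a neuropilin, had 80, 62 and 68 reads in vehicle, 265, 412 and 337 in VPA and 138, 110 and 103 with Rapamycin added. The 3 groups did not overlap, and every VPA library held more than 3 times the reads of any vehicle library. In normalised counts it was 71.7 ± 5.69, 332 ± 80.4 and 116 ± 16.8 (SD, n = 3 each), a 4.64-fold difference between VPA and vehicle (log2 fold change 2.20, SE 0.21, adjusted p = 4.87e-05, edgeR). In GRCh38 the gene spans chromosome 7, minus strand, from 83363238 to 83649113. Per length it remained low, at 2.39 ± 0.578 RPKM with VPA, below SEMA3F at 17.2 ± 1.78 on the same scale.

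SEMA3C, which binds neuropilins and guides both neural crest and axons, had 90, 95 and 347 reads in vehicle, 512, 482 and 454 in VPA and 177, 160 and 343 with Rapamycin added. Vehicle replicate 3 and VPA + Rapamycin replicate 3 were the highest of their groups, and both lay under all VPA libraries. It was called higher with VPA (log2 fold change 1.37, SE 0.41, adjusted p = 0.0247, edgeR), with an estimate of 2.31 without vehicle replicate 3 (adjusted p = 2.08e-08). The call was lost without vehicle replicate 2 or any of the VPA libraries (adjusted p from 0.0612 to 0.0953) and with DESeq2 (0.0987). SEMA3F, a repellent read through NRP2 and PLXNA3, was called lower, with 3187, 1642 and 1424 reads in vehicle, 1554, 1252 and 1387 in VPA and 1522, 1396 and 1120 with Rapamycin added. Here vehicle replicate 1 stood above the rest and the groups overlapped. The log2 fold change of SEMA3F went from -0.64 (adjusted p = 0.0482) to -0.25 without that library. Its call was lost there, without vehicle replicate 2 and without any VPA library (adjusted p up to 0.152). It was also lost with DESeq2 and, by edgeR, with upper-quartile factors (adjusted p up to 0.169). SEMA3A, SEMA3B, SEMA3D and SEMA3G were not called.

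Among mesenchymal markers, COL1A1 and COL1A2 of the 7 listed (with COL3A1, TWIST1, PRRX1, LUM and PDGFRB) were called higher with VPA and 0 lower, beside 16.4% and 15.7% of all genes. The summed level of the list was 148 to 313 CPM in vehicle, 575 to 731 in VPA and 256 to 381 in VPA + Rapamycin. TWIST1 had 0, 1 and 63 reads and PRRX1 0, 0 and 53 in vehicle, so that both were near 0 in vehicle outside replicate 3. Their part in the change of SEMA3E and SEMA3C was not tested.

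The 5′ flanks of the members with the smallest p in each direction, SEMA3E and ROBO3, are shown as the regions where regulation of these genes would be read. They are RefSeq sequences on GRCh38.p14, 5′ to 3′ along the gene, and end before both the RefSeq start and the start of the gene in the deposited tables. RefSeq lists 2 starts for SEMA3E and 3 for ROBO3, of which the one nearest the gene's 5′ end was used, and which start the organoids use was not measured. Capitals mark a match to a GC box.
SEMA3E, chr7:83649140-83649389, minus strand: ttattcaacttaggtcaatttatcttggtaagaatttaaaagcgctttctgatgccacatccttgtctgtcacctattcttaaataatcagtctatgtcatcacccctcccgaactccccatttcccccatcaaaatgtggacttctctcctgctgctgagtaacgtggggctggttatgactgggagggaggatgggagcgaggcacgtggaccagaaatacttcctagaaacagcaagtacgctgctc
ROBO3, chr11:124865182-124865385, plus strand: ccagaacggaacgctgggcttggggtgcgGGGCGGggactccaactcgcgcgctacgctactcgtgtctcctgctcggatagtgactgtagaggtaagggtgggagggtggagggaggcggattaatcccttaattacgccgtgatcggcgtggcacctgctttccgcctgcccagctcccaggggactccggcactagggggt

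Searched on both strands were an AP-1 site (TGANTCA), a CRE (TGACGTCA), an EGR site (GCGNGGGCG) and a GC box (GGGCGG), of which the last 2 can overlap. The SEMA3E flank of 250 bases held 0 of the 4 motifs, with 46.4% GC and 6 CpG. The ROBO3 flank of 204 bases held 1 GC box, with 64.2% GC and 17 CpG. A RefSeq window of 250 bases before the start was found for 63 of the 73 members. The GC box was in 46 of them (73.0%) and in 59.8% of the windows of 14619 genes of the tables, the EGR site in 11 (17.5% against 12.3%), the CRE in 2 (EPHA2 and SEMA4C, 3.17% against 2.35%) and the AP-1 site in 1 (RGMB, 1.59% against 4.73%). These matches describe letters, not sites in use.

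Of the 13 membrane-bound semaphorins of classes 4 to 7, 1 was higher and 4 were lower with VPA, beside 16.4% and 15.7% of all genes. SEMA5B, which has thrombospondin repeats, had 7856, 5123 and 4688 reads in vehicle, 3271, 2946 and 3472 in VPA and 3170, 3517 and 3137 with Rapamycin added, a log2 fold change of -0.94 in VPA (SE 0.15, adjusted p = 9.92e-04, edgeR). SEMA4C, a ligand of PLXNB2, had 2704, 1808 and 1844 reads in vehicle, 1390, 1292 and 1624 in VPA and 1483, 1528 and 1442 with Rapamycin added, with -0.63 (adjusted p = 0.00500). In both genes all 6 treated libraries lay below all vehicle libraries, and the treated groups overlapped each other.

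SEMA7A, which is anchored by a lipid and read by PLXNC1, had 617, 377 and 376 reads in vehicle, 330, 298 and 330 in VPA and 286, 285 and 248 with Rapamycin added. SEMA6C had 1562, 1104 and 1128, then 974, 843 and 1133, then 1221, 1260 and 1130. Both were called lower (log2 fold changes -0.58 and -0.44, adjusted p = 0.0242 and 0.0284, edgeR), and both lost the call without vehicle replicate 1, VPA replicate 1 or VPA replicate 2, SEMA7A also without VPA replicate 3 and SEMA6C without vehicle replicate 2 (adjusted p from 0.0514 to 0.143). SEMA4F had 458, 425 and 334 reads in vehicle, 607, 567 and 665 in VPA and 469, 519 and 444 with Rapamycin added. It was the single member of these classes called higher (0.52, adjusted p = 0.0158), a call lost without VPA replicate 1 or 3 (adjusted p up to 0.0675). SEMA4A, SEMA4B, SEMA4D, SEMA4G, SEMA5A, SEMA6A, SEMA6B and SEMA6D were not called.

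Of the 9 plexins, the signalling receptors of semaphorins, 6 were lower with VPA and 0 higher, where 15.7% and 16.4% of all genes were called. Their median log2 fold change was -0.43. PLXNA3, a partner of NRP2, had 2761, 2048 and 2128 reads in vehicle, 1248, 1155 and 1433 in VPA and 1384, 1660 and 1531 with Rapamycin added. It fell to 52.9% of the vehicle level (log2 fold change -0.93, SE 0.12, adjusted p = 2.26e-04, edgeR). PLXNA4, which transduces SEMA3A signals in neurons and is scarce here, had 88, 159 and 126 reads in vehicle, 51, 44 and 36 in VPA and 82, 81 and 94 with Rapamycin added, a log2 fold change of -1.60 (SE 0.30, adjusted p = 0.00243). In both, every VPA library lay below every vehicle library and, scaled to depth, below every VPA + Rapamycin library, while PLXNA4 in VPA + Rapamycin overlapped vehicle.

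Among the B-type plexins, PLXNB1, the receptor of SEMA4D, had 4176, 3262 and 2909 reads in vehicle, 2178, 2158 and 2540 in VPA and 2981, 2964 and 2615 with Rapamycin added (log2 fold change -0.67, adjusted p = 0.00203, edgeR). PLXNB2 had 5858, 4634 and 4627, then 3839, 3751 and 4252, then 4580, 4642 and 4072 (-0.43, adjusted p = 0.00785). PLXNB3 is low and overlaps SRPK3 on its own strand, which had 37.7 reads on average against 65.4. Its reads were 94, 104 and 89, then 62, 40 and 48, then 56, 38 and 58 (-1.02, adjusted p = 0.0117, edgeR). In these 3, VPA lay below vehicle in all libraries. PLXNA1 had 10665, 8019 and 8195 reads in vehicle, 7044, 7065 and 8377 in VPA and 8162, 8441 and 7813 with Rapamycin added, a log2 fold change of -0.33 (adjusted p = 0.0337). The call of PLXNA1 was lost without vehicle replicate 1 or 2 or any VPA library (adjusted p up to 0.152), that of PLXNB3 without vehicle replicate 2, VPA replicate 2 or VPA replicate 3 (up to 0.0579), and that of PLXNB2 without VPA replicate 2 (0.0515). PLXNA2, PLXNC1 and PLXND1 were not called, and neither were the co-receptors NRP1 and NRP2. The receptor of SEMA3E, PLXND1, had 1658 to 2871 reads in vehicle and 2986 to 3270 in VPA (log2 fold change 0.39, approximate 95% interval 0.10 to 0.69, adjusted p = 0.0682, edgeR).

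Of the 22 ephrins and Eph receptors, 4 were higher and 1 lower with VPA, where 16.4% and 15.7% of all genes were called. EFNB3, a transmembrane ephrin of the ventral midline, had 1370, 926 and 1396 reads in vehicle, 1841, 1798 and 2027 in VPA and 1781, 1895 and 1824 with Rapamycin added, a log2 fold change of 0.55 (SE 0.13, adjusted p = 0.00933, edgeR). Its receptor EPHB1 had 1061, 919 and 1141 reads in vehicle, 1549, 1404 and 1446 in VPA and 1741, 1681 and 1607 with Rapamycin added (0.42, adjusted p = 0.0142), with the call lost without vehicle replicate 2, VPA replicate 1 or VPA replicate 2 (up to 0.0751). Both genes had all 6 treated libraries above all vehicle libraries.

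Of the EphA receptors, EPHA8 had 15, 25 and 20 reads in vehicle, 71, 48 and 76 in VPA and 50, 87 and 37 with Rapamycin added, a log2 fold change of 1.60 in VPA (SE 0.34, adjusted p = 0.00514, edgeR). EPHA1 had 8, 9 and 4 reads in vehicle, 30, 31 and 35 in VPA and 10, 22 and 10 with Rapamycin added (2.09, adjusted p = 0.00496). EPHA1 overlaps ZYX on the other strand, which had 1394 reads on average against 17.7. EPHA2 had 2332, 1272 and 1627 reads in vehicle, 1050, 957 and 1197 in VPA and 980, 1014 and 994 with Rapamycin added, and was the single Eph receptor called lower (-0.77, adjusted p = 0.00445). None of the 3 receptors had overlapping vehicle and VPA libraries. EFNA1 to EFNA5, EFNB1, EFNB2, EPHA3 to EPHA7, EPHA10, EPHB2, EPHB3, EPHB4 and EPHB6 were not called.

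**Figure D3:**
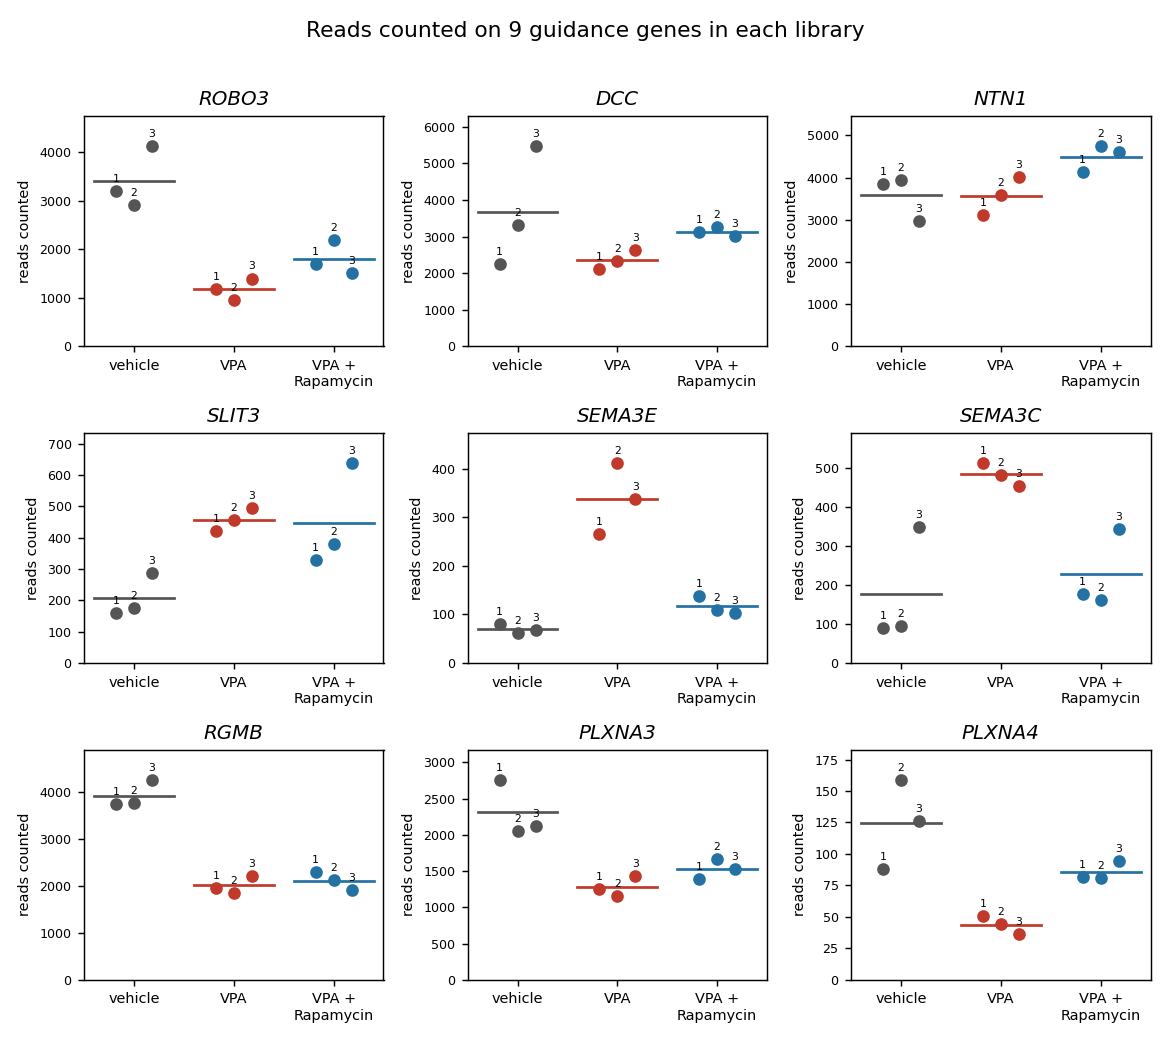
Reads counted on 9 guidance genes in each library (points, with the replicate number; lines, mean of 3). ROBO3, RGMB, PLXNA3 and PLXNA4 are lower and SLIT3, SEMA3E and SEMA3C higher in all 3 VPA libraries than in any vehicle library, and DCC and SEMA3C show vehicle replicate 3 apart from the other two.

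The second comparison asked what Rapamycin changes in VPA-treated SCOs. ROBO3, DCC, NTN1 and PLXNA4 were higher with Rapamycin, and SEMA3E and SEMA3C lower. Of 70 members tested, 9 were higher (12.9%, against 3.01% of all 17317 genes tested) and 3 lower (4.29%, against 3.73%). Among protein-coding genes alone, 3.23% were called higher and 4.45% lower, so the members' share called lower lay near both. The median log2 fold change was 0.016 over the members and 0.0039 over all genes. The count of 9 depended on the design: it was 0 in a fit of all 9 libraries, 4 without VPA replicate 1, 2 without VPA replicate 2 and 3 without VPA + Rapamycin replicate 3. In that fit, vehicle libraries included, 44 of 18008 genes tested were called higher in place of 522 of 17317.

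ROBO3, whose reads are given above, was at 155% of its VPA level with Rapamycin (log2 fold change 0.64, SE 0.11, adjusted p = 0.00198, edgeR), with an adjusted p of 0.0765 in the fit of all 9 libraries. DCC was at 135% of the VPA level (0.43, SE 0.08, adjusted p = 0.00211), and its 3 VPA + Rapamycin libraries, 3019 to 3260 reads, lay above its VPA libraries. NTN1 was at 128% (0.36, SE 0.09, adjusted p = 0.0161), and the call was lost without VPA replicate 1, VPA replicate 2 or VPA + Rapamycin replicate 3 (adjusted p up to 0.109). In the fit of all 9 libraries the adjusted p was 0.438 for DCC and 0.220 for NTN1, so that neither was called there. ROBO1, ROBO2, SLIT1, SLIT2 and SLIT3 were not called. The log2 fold change of ROBO1 was -0.18 (adjusted p = 0.134), and those of ROBO2, SLIT1, SLIT2 and SLIT3 were 0.03, 0.12, 0.20 and 0.01.

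Of the other members called higher, PLXNA4 was at 199% of the VPA level (log2 fold change 0.99, SE 0.25, adjusted p = 0.0239, edgeR), PLXNB1 at 126% (0.34, adjusted p = 0.00873), SEMA6C at 124% (0.32, adjusted p = 0.0332) and NEO1 at 123% (0.30, adjusted p = 0.0367). NTN4, a netrin of basement membranes, had 256, 202 and 206 reads in vehicle, 300, 242 and 242 in VPA and 354, 354 and 334 with Rapamycin added (0.43, adjusted p = 0.0461). EPHB3 had 1766, 1307 and 1232 reads in vehicle, 1124, 1166 and 1293 in VPA and 1264, 1661 and 1425 with Rapamycin added (0.30, adjusted p = 0.0491). Scaled to depth, the VPA and VPA + Rapamycin libraries of these 6 genes did not overlap, although the reads of NEO1, SEMA6C and EPHB3 did.

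These 6 calls were lost in some of the fits that left out 1 library, while the estimates stayed above 0, at log2 fold changes of 0.31 to 0.39 for PLXNB1, 0.84 to 1.12 for PLXNA4, 0.24 to 0.40 for SEMA6C, 0.22 to 0.36 for NEO1, 0.35 to 0.54 for NTN4 and 0.22 to 0.40 for EPHB3. Over all genes, the 522 called higher became 175 to 337 when a VPA library was left out. Without VPA replicate 2 all 6 calls were lost. The calls of PLXNB1, SEMA6C, NEO1 and EPHB3 were also lost without VPA replicate 1, those of PLXNA4, NTN4 and EPHB3 without VPA replicate 3, those of SEMA6C, NEO1 and NTN4 without VPA + Rapamycin replicate 1, those of SEMA6C, NTN4 and EPHB3 without VPA + Rapamycin replicate 2, and all but that of PLXNB1 without VPA + Rapamycin replicate 3. The adjusted p then ran up to 0.0679 for PLXNB1, 0.120 for PLXNA4, 0.207 for SEMA6C, 0.182 for NEO1, 0.166 for NTN4 and 0.187 for EPHB3. The call of NTN4 was also lost with DESeq2, and those of NTN4 and EPHB3 with upper-quartile factors.

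SEMA3E fell to 34.9% of its VPA level with Rapamycin (log2 fold change -1.51, SE 0.18, adjusted p = 5.38e-05, edgeR). It ranked 25 of all 17317 genes by p, and its call held in every alternative run, with estimates from -1.66 to -1.31 when each library was left out. SEMA3C fell to 48.2% (-1.06, SE 0.21, adjusted p = 0.00497), with an estimate of -1.53 without VPA + Rapamycin replicate 3, and an adjusted p of 0.0683 with DESeq2 and 0.284 in the fit of all 9 libraries. SEMA4F fell to 79.0% (-0.34, adjusted p = 0.0419), a call lost without any of the VPA libraries or VPA + Rapamycin replicates 1 or 3 (adjusted p up to 0.128). Of the mesenchymal markers above, 6 of 7 were lower with Rapamycin and 0 higher, beside 3.73% and 3.01% of all genes. Of the neuronal markers 2 of 9 were higher (ELAVL4 and DCX) and 1 lower (GAP43), beside 3.01% and 3.73% of all genes. Their part in these changes was not tested.

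**Figure D4:**
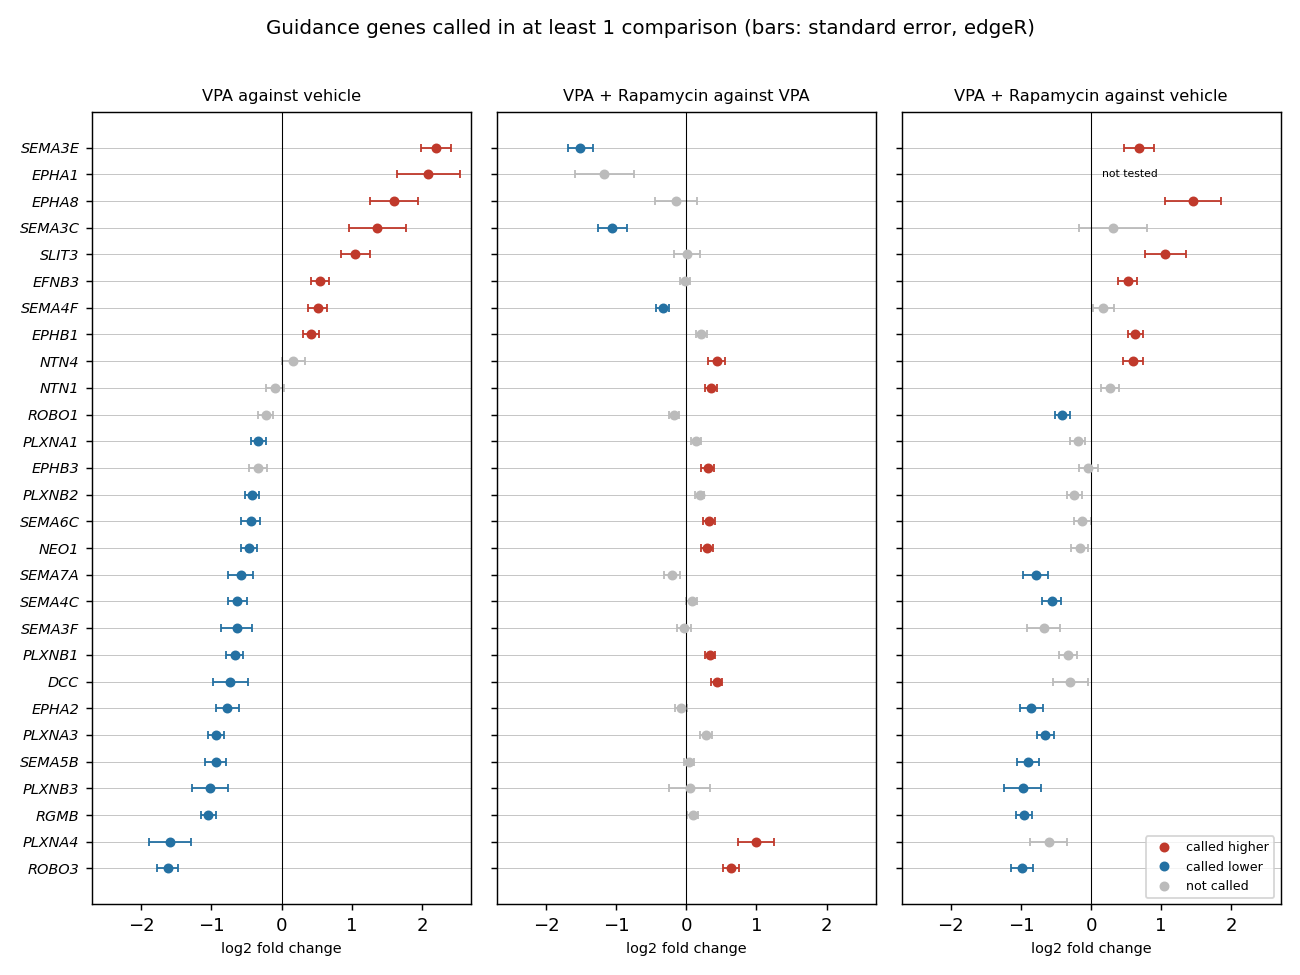
Log2 fold change of the 28 members called in at least 1 comparison, in VPA over vehicle, VPA + Rapamycin over VPA and VPA + Rapamycin over vehicle (point, estimate; bar, standard error; edgeR; red, called higher; blue, called lower; grey, not called). SEMA3E is red, blue and red across the panels and ROBO3 blue, red and blue, and the 3 comparisons share libraries.

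The third comparison asked which members still differed from vehicle when Rapamycin was given with VPA. Of 69 members tested, 6 were higher than in vehicle (8.70%, against 9.81% of all 17383 genes tested) and 9 lower (13.0%, against 9.22%), with a median log2 fold change of -0.085 over the members and -0.00087 over all genes. Each count was lower without any of the 3 VPA + Rapamycin libraries, at 2 higher and 5 lower for each of them, beside 4.24% to 4.80% of all genes higher and 2.97% to 3.77% lower. The higher count was 2 without vehicle replicate 2 and 10 without vehicle replicate 1. With all libraries of the pair, 11.1% of protein-coding genes were called higher and 9.72% lower.

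Of the 16 members that VPA lowered, 8 were still lower than vehicle with Rapamycin, namely ROBO3, RGMB, SEMA5B, SEMA4C, SEMA7A, PLXNA3, PLXNB3 and EPHA2, and ROBO1 joined them. RGMB was at 51.9% of vehicle (log2 fold change -0.96, SE 0.11, adjusted p = 4.80e-04, edgeR), ROBO3 at 50.9% (-0.98, SE 0.15, adjusted p = 0.00229) and SEMA5B at 54.1% (-0.89, SE 0.15, adjusted p = 0.00366). PLXNA3 was at 64.1% (-0.65, adjusted p = 0.00532) and EPHA2 at 55.8% (-0.85, adjusted p = 0.00607). These 5 calls held in every alternative fit without a minimum fold change. SEMA7A (-0.79, adjusted p = 0.0131), SEMA4C (-0.56, adjusted p = 0.0160), ROBO1 (-0.41, adjusted p = 0.0246) and PLXNB3 (-0.97, adjusted p = 0.0266) each lost the call without any 1 of the VPA + Rapamycin libraries, ROBO1 and PLXNB3 also without vehicle replicate 2 (adjusted p up to 0.106).

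Of the 8 members that VPA raised, 5 were still higher than vehicle, namely SLIT3, EFNB3, EPHB1, EPHA8 and SEMA3E, and NTN4 was higher as well. EPHA1, also raised by VPA, was not tested in this comparison. EPHB1 was at 156% of vehicle (log2 fold change 0.63, SE 0.11, adjusted p = 0.00361, edgeR) and kept its call in all alternative fits without a minimum fold change. NTN4 was at 152% (0.60, adjusted p = 0.0164), EFNB3 at 145% (0.53, adjusted p = 0.0221), EPHA8 at 275% (1.45, adjusted p = 0.0263), SLIT3 at 210% (1.06, adjusted p = 0.0284) and SEMA3E at 162% (0.69, adjusted p = 0.0484). The estimate of SLIT3 was 0.67 without VPA + Rapamycin replicate 3 (adjusted p = 0.120), and its adjusted p was 0.0958 without vehicle replicate 2. NTN4 and EFNB3 lost the call without vehicle replicate 2 or any VPA + Rapamycin library (adjusted p up to 0.0907), SEMA3E also without vehicle replicate 3 (up to 0.189) and with DESeq2, RLE factors, no filter or protein-coding genes only (up to 0.0707), and EPHA8 without VPA + Rapamycin replicate 1 or 2 (up to 0.145).

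Side by side, the calls of the 3 comparisons fell into few patterns, and since each pair of comparisons shares 3 libraries, no test was made on them. Of the 16 members lowered by VPA, 6 were higher with Rapamycin than with VPA alone (ROBO3, DCC, NEO1, PLXNA4, PLXNB1 and SEMA6C), of which ROBO3 also remained lower than vehicle. Of the 8 raised by VPA, 3 were lower with Rapamycin (SEMA3E, SEMA3C and SEMA4F), of which SEMA3E also remained higher than vehicle. Of the members tested in all 3 comparisons, 42 were called in none, and PLXNA1, PLXNB2 and SEMA3F were called in VPA against vehicle alone. EPHA1 was also called there alone, but was not tested in VPA + Rapamycin against vehicle. DCC in VPA + Rapamycin had a log2 fold change of -0.30 against vehicle (approximate 95% interval -0.79 to 0.19). This became 0.10 without vehicle replicate 3 and -0.58 without vehicle replicate 1 (adjusted p = 0.0183, edgeR). Whether DCC differed from vehicle thus turned on single vehicle libraries. For NTN1 the log2 fold change in VPA + Rapamycin against vehicle was 0.27 (0.01 to 0.52, unadjusted p = 0.0677, adjusted p = 0.181, edgeR). It was 0.05 for ROBO2, 0.08 for SLIT1 and 0.01 for SLIT2.

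Of 46 intracellular guidance effectors, which act downstream of these receptors and were all tested, 6 were higher and 8 lower with VPA, where 16.4% and 15.7% of all genes were called. With Rapamycin added 2 were higher and 2 lower, beside 3.01% and 3.73% of all genes, and in VPA + Rapamycin against vehicle 3 were higher and 4 lower, beside 9.81% and 9.22%. These shares lie near those of all genes. The effectors had medians of -0.10, -0.01 and -0.12 on the log2 scale. ABLIM3, an actin-binding LIM protein, had 20, 15 and 13 reads in vehicle, 118, 135 and 126 in VPA and 117, 113 and 79 with Rapamycin added (log2 fold change 2.90 in VPA, adjusted p = 4.79e-05, edgeR). NGEF, an exchange factor that EphA4 activates, rose by 1.32 and VAV3, an exchange factor downstream of Eph receptors, by 1.34 on the log2 scale. PAK2, FARP1, an exchange factor bound by plexins, and ENAH, which extends actin filaments, had log2 fold changes of -0.56, -0.54 and -0.43. With Rapamycin, RND1, a GTPase that binds plexins, was higher (0.54, adjusted p = 0.0352) and MICAL2, which oxidises actin, lower (-1.64, adjusted p = 0.0133).

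Of 17 other cues and co-receptors, 15 were tested, with 3 higher and 2 lower in VPA, 1 and 1 with Rapamycin added, and 1 and 2 in VPA + Rapamycin against vehicle, counts that likewise lie near the shares of all genes just given. DRAXIN, a secreted ligand of DCC, had 888, 774 and 817 reads in vehicle, 1601, 1539 and 1602 in VPA and 1467, 1299 and 1059 with Rapamycin added. Every treated library was above every vehicle library (log2 fold change 0.86 in VPA, adjusted p = 1.66e-04, and 0.57 with Rapamycin against vehicle, adjusted p = 0.0106, edgeR). NELL2, a ligand of ROBO3, had 1746, 1435 and 2767 reads in vehicle, 3954, 3251 and 3361 in VPA and 3027, 2645 and 2994 with Rapamycin added (0.75 in VPA, adjusted p = 0.0132). ISLR2, a membrane protein of growing axons, had 896, 823 and 492 reads in vehicle, 285, 197 and 242 in VPA and 451, 476 and 362 with Rapamycin added, with log2 fold changes of -1.69 in VPA (adjusted p = 2.64e-04) and 0.85 with Rapamycin added (adjusted p = 8.09e-04). GAS1, a co-receptor of SHH, was higher with VPA (0.69) and lower with Rapamycin added (-0.55), and RTN4R, a receptor of myelin inhibitors, was lower than in vehicle in both treatments (-0.60 and -0.73).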

How the data were processed

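The authors captured mRNA with poly-T beads, made cDNA from random hexamers with a NEBNext Ultra kit and deposited raw counts of reads per gene, 1 table for each pair of conditions, with coordinates of GRCh38 and a gene length. The lowest sum of a gene over a table was 2 reads. The submitters' processing notes name HISAT2 2.0.5 and featureCounts 1.5.0-p3, and the strand setting and annotation release are not given in the sources used here, so reads of a gene and its antisense partner cannot be told apart. The tables also hold 18 columns of FPKM and the authors' fold changes and p-values, which were not used.

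Tests used edgeR 4.0.16 in R 4.3.3 (counts as deposited, TMM factors, filterByExpr, quasi-likelihood test, Benjamini-Hochberg adjustment over all genes tested, threshold 0.05) within each pair's own table. Standard errors come from the estimate and its F statistic. Normalised counts are scaled with TMM factors over all 9 libraries, and levels between genes are RPKM computed from these and the deposited gene length. DESeq2 1.42.0, RLE and upper-quartile factors, no filter, all 9 libraries in 1 fit, a replicate block, protein-coding genes only, a minimum of 1 on the absolute log2 scale and leaving out each library were run as alternatives. The tests were run on simulated data with known changes first. Members and lists were chosen with earlier results of these data known. Reads per library are given for members called with the smallest p (up to 25 with VPA, 15 in each other comparison) and for NTN1, DCC, ROBO1, ROBO2, ROBO3 and the SLIT genes. UNC5C, EPHA5, RGMA and PLXND1 were added after their values were seen. Another gene whose mean count exceeds 10% of the member's overlaps 9 of the 73 members, namely EPHA1, EPHA5, EPHB4, NTN5, PLXNB3, PLXNC1, RGMB, SEMA4G and UNC5D. Intervals are approximate 95% intervals, the estimate plus and minus a normal multiple of its standard error. They are narrower than the quasi-likelihood test would give, so an interval can exclude equality where the unadjusted p exceeds 0.05. Intervals and floors cover no error beyond these libraries.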

Additional observations from a re-analysis of the deposited data

How the results depend on the processing

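Of 51 calls on members, 20 held under every alternative fit without a minimum fold change and 0 turned direction: 13 of 24 in VPA against vehicle, 1 of 12 in VPA + Rapamycin against VPA (SEMA3E) and 6 of 15 in VPA + Rapamycin against vehicle. With a minimum of 1 on the absolute log2 scale, the members called higher and lower were 5 and 4, then 0 and 2, then 2 and 0. With all 9 libraries in 1 fit, 0 members were higher by edgeR (10 at an unadjusted p of at most 0.05; DESeq2 on the pair alone called 10) and 1 lower in VPA + Rapamycin against VPA, and with no filter on low counts 6 were lower there. Leaving out each library in turn gave 5 to 11 higher and 9 to 18 lower with VPA, 2 to 7 and 2 to 4 with Rapamycin added, and 2 to 10 and 5 to 13 in VPA + Rapamycin against vehicle. With upper-quartile factors, DCC, PLXNA1 and SEMA3F in VPA and NTN4 and EPHB3 with Rapamycin added were not called. The causes were not tested.

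Same-numbered libraries share a prefix in the labels whose meaning is not given there, and for that reason they were not taken as pairs. Their deviations correlated by 0.0366, 0.0525 and -0.101 (VPA, vehicle), 0.0879, -0.0439 and -0.0084 (VPA + Rapamycin, VPA) and 0.0862, 0.0720 and 0.228 (VPA + Rapamycin, vehicle). With so few libraries, these correlations cannot tell whether same-numbered libraries share a clone or a batch. With a replicate block the counts were 10 higher and 15 lower, 9 and 5, and 6 and 12, and PLXNA1 in VPA (adjusted p = 0.0600, edgeR) and SEMA4F with Rapamycin added (0.0609) were not called.

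Some uncalled midline genes near 0 changed sign on the log2 scale. ROBO2 in VPA was -0.0073 with protein-coding genes only. SLIT3 with Rapamycin added was -0.00038 with no filter and -0.053 with the replicate block. SLIT2 in VPA + Rapamycin against vehicle was -0.0016 with the block and -0.0037 with protein-coding genes only. With libraries left out, NTN1 in VPA ran from -0.21 to 0.027, ROBO2 from -0.012 to 0.058 and SLIT1 from -0.10 to 0.024, and with Rapamycin added ROBO2 ran from -0.015 to 0.078 and SLIT3 from -0.38 to 0.20. Against vehicle, DCC in VPA + Rapamycin ran from -0.58 to 0.10 and SLIT2 from -0.14 to 0.11. The SE of the log2 fold change in VPA was highest for EPHA6 (0.68), EPHA5 (0.66), UNC5C (0.65) and EPHA1 (0.45), and reads alone do not set it, since DCC had 0.25 and the scarce PLXNB3 0.26.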
